A study of Mus musculus with 8 samples.

Results

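The genes described here are 9 markers of fetal and regenerative intestinal epithelium, Ly6a, Clu, Spp1, Anxa1, Anxa3, Msln, Ly6d, Mal and Abcb1b, out of 25239 genes in the count table. They were read out by gene symbol from bulk RNA-seq of intestinal epithelial cells (IECs), and they were chosen with their values in this comparison known. The levels and genotype differences of these 9 genes are therefore a description, with no test. IECs came from duodenal crypts of untreated mice of both sexes, aged 7 to 10 weeks. There were 4 wild-type (WT, C57BL/6Jax) samples and 4 CD1d-KO samples, which the labels give as CD1d1/2 KO and which lack the lipid-presenting molecule CD1d and the natural killer T (NKT) cells that depend on it in the whole animal. The comparison addresses how NKT cells bear on the fate of crypt epithelium, including its fetal-like state. The mice were not littermates, the 2 experiments of the study are not marked on the samples, and each sample held live cells sorted for EpCAM, with leukocytes (CD45), endothelium (CD31) and erythroid cells (Ter119) gated out.

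Before birth, the epithelium of the mouse gut expresses a set of genes that adult crypts keep at a low level. After radiation, infection or helminth injury, crypt cells switch part of this fetal set back on while they lose Lgr5-marked stem cells, and the transcriptional regulator YAP, which binds DNA through TEAD factors, is known to drive much of this switch. Ly6a encodes Sca-1, a surface protein used to sort fetal-like and injured epithelium and also induced by interferon. Clu encodes clusterin, a secreted chaperone that marks the rare revival stem cells of the damaged gut. Spp1 encodes osteopontin, a secreted integrin ligand. Anxa1 and Anxa3 encode annexins, which bind phospholipid membranes in the presence of calcium. Msln (mesothelin) and Ly6d encode surface proteins anchored by a lipid, Mal encodes a small raft protein of apical membrane sorting, and Abcb1b encodes a P-glycoprotein, a pump that exports drugs and lipids from cells.

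The promoters of 4 members are shown because TEAD factors, AP-1 and interferon-activated STAT factors have been linked with this gene set. The TATA box, a general promoter element, was searched as well. RefSeq (GRCm38.p6, the same assembly as the mm10 annotation of the counts) supplied promoter sequences for Spp1, Anxa1, Mal and Abcb1b, and the other 5 members, Ly6a, Clu, Anxa3, Msln and Ly6d, had no entry in the table used. Each line gives the 250 bases before the transcription start, read 5′ to 3′ on the strand of the gene, with the matches to the searched motifs in capitals. The windows are chr5:104434861-104435110 on the plus strand for Spp1, chr19:20390672-20390921 on the minus strand for Anxa1, chr2:127656696-127656945 on the minus strand for Mal and chr5:8797897-8798146 on the plus strand for Abcb1b.
Spp1: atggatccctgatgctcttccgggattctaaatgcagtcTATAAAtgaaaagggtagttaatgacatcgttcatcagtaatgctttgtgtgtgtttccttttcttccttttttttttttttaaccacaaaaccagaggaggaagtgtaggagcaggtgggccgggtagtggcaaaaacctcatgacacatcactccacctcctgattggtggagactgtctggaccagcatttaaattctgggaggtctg
Anxa1: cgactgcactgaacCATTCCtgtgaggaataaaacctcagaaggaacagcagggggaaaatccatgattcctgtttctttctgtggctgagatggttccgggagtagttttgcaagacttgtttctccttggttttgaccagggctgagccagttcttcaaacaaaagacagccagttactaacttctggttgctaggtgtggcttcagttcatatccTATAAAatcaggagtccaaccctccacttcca
Mal: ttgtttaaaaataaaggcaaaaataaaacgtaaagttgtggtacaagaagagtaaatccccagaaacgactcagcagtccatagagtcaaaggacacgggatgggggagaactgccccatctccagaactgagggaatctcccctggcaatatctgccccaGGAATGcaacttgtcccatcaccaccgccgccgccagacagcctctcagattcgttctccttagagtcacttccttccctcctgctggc
Abcb1b: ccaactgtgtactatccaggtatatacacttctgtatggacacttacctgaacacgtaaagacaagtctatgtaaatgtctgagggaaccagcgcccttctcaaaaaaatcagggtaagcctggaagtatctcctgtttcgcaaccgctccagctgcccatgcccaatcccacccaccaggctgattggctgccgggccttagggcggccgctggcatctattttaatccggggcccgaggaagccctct

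The TEAD letters GGAATG, searched on both strands, were found in the Anxa1 window as CATTCC, 236 to 231 bases before the start, and in the Mal window as GGAATG, 89 to 84 bases before it. Of 32851 mouse promoters of the same length, 12.6% held these letters. TATAAA on the gene's strand lay 32 to 27 bases before the start of Anxa1 and 211 to 206 bases before that of Spp1, and 7.59% of promoters held it. The AP-1 letters TGANTCA, present in 6.75% of promoters, and the STAT letters TTCNNNGAA, present in 7.02%, were found in none of the 4 windows, and the Abcb1b window held none of the 4 motifs. A match is a description of letters, and no factor binding was measured.

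Total counts per sample ranged from 29743061 to 31629435 in CD1d-KO and from 23610266 to 29763051 in WT samples. Cd1d1, the targeted gene, was at 0 to 7.15 normalised counts in CD1d-KO and 61.1 to 91.1 in WT samples. CD1d-KO 1 and CD1d-KO 2 carried the Y-linked transcript Ddx3y at 1722 and 2053 normalised counts and Xist, the X-inactivation RNA, at 67.9 and 50.5, whereas Ddx3y was at most 1.05 in the other 6 samples. Sex and genotype were thus unevenly mixed, and the fits were repeated on the 6 samples without Y-linked counts. The 9 epithelial markers, Epcam and Krt8 among them, were all detected, at a summed 254200 to 280900 normalised counts in every sample. Of the libraries, WT 3 stood apart, with 18250 summed counts of 18 gastric markers against 1086 to 8164 in the other 7 samples.

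All 9 members had a lower mean in CD1d-KO than in WT samples, and all were scarce beside the epithelial surface protein Epcam. Per length, the members' mean levels in WT samples lay between 0.0397 and 6.16 RPKM (the count per kilobase of exon, scaled to library size), against 894 ± 7.03 RPKM (SD, n = 4) for Epcam. Because these are bulk samples, fewer cells that express a gene and less of its RNA per cell cannot be told apart. Each level below is a normalised count, which is a count divided by the DESeq2 size factor of its library.

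Ly6a (mm10 chromosome 15, 74994877 to 74998031, minus strand) was at 97.2, 72.3, 123.1 and 121.0 normalised counts in WT samples 1 to 4 and at 12.5, 19.0, 61.6 and 30.7 in CD1d-KO samples 1 to 4. The genotypes did not overlap, and both CD1d-KO samples with Y-linked counts were lower than both without. The means were 103.4 ± 23.8 in WT and 31.0 ± 21.7 in CD1d-KO samples (SD, n = 4 each), a log2 fold change of -1.74 ± 0.385 (SE, DESeq2). It was -1.16 when CD1d-KO 1 and 2 were left out.

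Ly6d (chromosome 15, 74762056 to 74763567, minus strand), a gene of the same Ly6 family, had few reads. WT samples 1 to 4 held 6, 0, 6 and 6 counts, and only CD1d-KO 4 among the CD1d-KO samples held any, 2 counts. WT 2 and CD1d-KO 1, 2 and 3 were all at 0, so the genotypes overlapped. Pooled over samples relative to total counts, Ly6d was 9.99 times as frequent in WT as in CD1d-KO (95% exact counting interval 2.39 to 88.8). This interval and those below cover counting error only and leave out the spread between samples of a genotype. They also take each read as 1 molecule, since PCR copies were not told apart. The Ly6d ratio was 4.93 without CD1d-KO 1 and 2.

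Msln (chromosome 17, 25748613 to 25754378, minus strand) had 0 counts in every CD1d-KO sample and 8, 0, 2 and 0 in WT samples 1 to 4. In WT samples 80.0% of its reads came from WT 1. With 10 reads in all, only WT 1 lay above a floor of 3 counts, and the levels of Msln in the other samples could not be distinguished. No fold is given, as the CD1d-KO samples held 0 counts.

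Clu (chromosome 14, 65968483 to 65981548, plus strand) was the most abundant member in WT samples, at 186.5, 105.8, 768.8 and 222.5 normalised counts in WT 1 to 4, and at 25.03, 31.4, 47.9 and 89.3 in CD1d-KO 1 to 4. Every CD1d-KO sample lay below every WT sample, and WT 3 alone gave 62.6% of the Clu counts of its genotype. The means were 320.9 ± 302.5 and 48.4 ± 28.9 (SD, n = 4 each) and the log2 fold change was -2.73 ± 0.722 (SE). It was -1.83 without WT 3 and -2.23 without CD1d-KO 1 and 2.

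Spp1 (chromosome 5, 104435111 to 104441053, plus strand), the other secreted member, had 5, 2, 65 and 21 counts in WT 1 to 4. A single count, in CD1d-KO 4, was all that the 4 CD1d-KO samples held. The WT samples were spread over a wide range, and 69.9% of their Spp1 counts came from WT 3. Pooled relative to total counts, Spp1 was 103 times as frequent in WT (95% exact counting interval 18.1 to 4121), a ratio that rests on 1 CD1d-KO count. It was 42.7 without WT 3 and 50.9 without CD1d-KO 1 and 2.

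Anxa1 (chromosome 19, 20373434 to 20390671, minus strand) was at 6.87, 13.6, 74.7 and 20.8 normalised counts in WT 1 to 4 and at 2.68, 1.90, 4.89 and 10.6 in CD1d-KO 1 to 4. The genotypes overlapped, since CD1d-KO 4 lay above WT 1, and WT 3 held 67.5% of the WT counts. The log2 fold change was -2.54 ± 0.747 (SE) over all samples, -1.45 without WT 3 and -1.91 without CD1d-KO 1 and 2.

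Anxa3 (chromosome 5, 96793385 to 96845968, plus strand), the second annexin, differed least between the genotypes. Its normalised counts were 82.5, 91.2, 161.9 and 81.9 in WT 1 to 4 and 78.7, 44.8, 83.1 and 82.6 in CD1d-KO 1 to 4. CD1d-KO 3 and 4 lay within the WT range, and the difference of the means, 104.4 ± 38.6 against 72.3 ± 18.4 (SD, n = 4 each), came with a log2 fold change of -0.53 ± 0.277 (SE). Without WT 3 the log2 fold change was -0.24, and without CD1d-KO 2 it was -0.36.

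Mal (chromosome 2, 127633226 to 127656695, minus strand) was at 54.0, 65.0, 209.4 and 144.3 normalised counts in WT 1 to 4 and at 10.7, 5.71, 23.5 and 24.96 in CD1d-KO 1 to 4. The lowest WT sample was above the highest CD1d-KO sample. The means were 118.2 ± 72.9 and 16.2 ± 9.48 (SD, n = 4 each), with a log2 fold change of -2.87 ± 0.636 (SE), -2.44 without WT 3 and -2.29 without CD1d-KO 1 and 2.

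Abcb1b (chromosome 5, 8798147 to 8866314, plus strand) divided the WT samples. WT 1, 3 and 4 held 68, 66 and 44 counts, while WT 2 held 2 counts, as many as CD1d-KO 2. The other CD1d-KO samples held 0, 1 and 1 counts. Pooled relative to total counts the gene was 49.96 times as frequent in WT (95% exact counting interval 19.2 to 185), or 75.2 times without CD1d-KO 2. Exons of Abcb1b overlap those of the predicted gene Gm5106, which had 0 counts in all 8 samples.

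**Figure D1:**
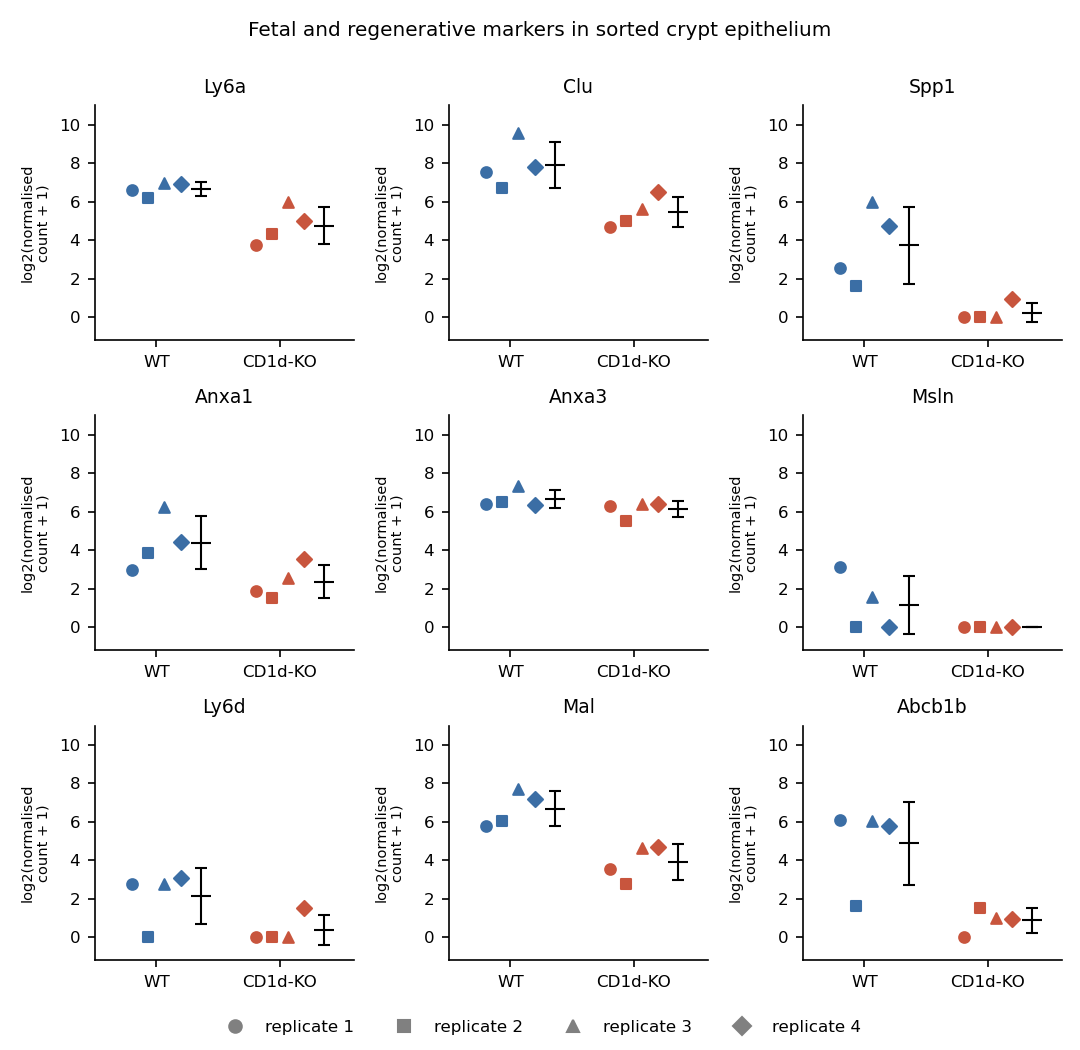
Normalised counts of the 9 members in every sample, on a log2(normalised count + 1) axis, with WT samples in blue and CD1d-KO samples in red, a symbol for each replicate number and, in black, the mean ± SD of the log2 values. Ly6a, Clu, Spp1 and Mal separate the genotypes, WT 2 sits at the CD1d-KO level for Abcb1b, and Anxa3 overlaps.

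Ordered by mean RPKM, WT samples expressed Clu (6.16 ± 5.78, SD, n = 4), Ly6a (3.60 ± 0.82), Anxa3 (2.27 ± 0.83), Mal (1.48 ± 0.905), Anxa1 (0.721 ± 0.769), Spp1 (0.501 ± 0.587), Abcb1b (0.376 ± 0.244), Ly6d (0.241 ± 0.164) and Msln (0.0397 ± 0.0607). Each gene's range over the WT samples overlapped that of the next, so neighbours in this order were not separated by their spread. In CD1d-KO samples Anxa3 came first at 1.57 ± 0.396 RPKM, ahead of Ly6a (1.07 ± 0.742) and Clu (0.925 ± 0.544), again with overlapping ranges. The ranges of Clu and of the next gene, Mal (0.202 ± 0.116), did not overlap there. By mean, Clu thus led the order in WT samples and came after Anxa3 and Ly6a in CD1d-KO samples. Its WT mean leaned on WT 3, which held 62.6% of its WT counts. The WT range of Clu, 2.02 to 14.7 RPKM, enclosed that of Ly6a, 2.5 to 4.26, so nothing is read from this change of place.

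The members did not share a single order of samples. WT 3 was the highest WT sample for 6 members, Ly6a, Clu, Spp1, Anxa1, Anxa3 and Mal, whereas WT 1 was highest for Msln and Abcb1b and WT 4 for Ly6d. Among CD1d-KO samples, CD1d-KO 4 was highest for 5 members. CD1d-KO 1 and 2 were both below CD1d-KO 3 and 4 for Ly6a, Clu, Anxa1 and Mal. Ly6a, with a coefficient of variation of 23.1% over WT samples, was the steadiest member, against 94.3% for Clu and 117% for Spp1.

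In the DESeq2 fit over all genes, 6 of the 9 members passed an adjusted p of 0.05, namely Ly6a, Clu, Spp1, Anxa1, Mal and Abcb1b, all lower in CD1d-KO. Of 15446 genes tested, 4.03% passed in either direction and 2.38% passed as lower in CD1d-KO. Anxa3 and Ly6d did not pass, and Msln fell under the filter on low counts. Every CD1d-KO sample lay below every WT sample for 5 members, Ly6a, Clu, Spp1, Mal and Abcb1b, as for 5.52% of genes tested, and for Abcb1b only through the size factors, since WT 2 and CD1d-KO 2 held equal counts. Since the members were chosen on this contrast, nothing is read from these counts.

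The set of members that passed changed with the samples. In the 6 samples without Y-linked counts it was Ly6a, Spp1, Mal and Abcb1b, 4 of 9, where 1.35% of genes tested passed as lower. Without WT 3, Anxa1 no longer passed, and it also did not pass without CD1d-KO 1, 2 or 3. Clu did not pass without CD1d-KO 2. By edgeR's quasi-likelihood test, which left out Spp1, Abcb1b, Ly6d and Msln for low counts, only Clu and Mal passed.

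Other genes of the fetal and regenerative set lay close to 0 in log2 fold change. Of 30 further genes of this kind, 23 were tested and 0 passed in DESeq2, with 4 at an unadjusted p under 0.05, and edgeR also called 0 of the 20 it tested. Their median log2 fold change was -0.02, beside 0.00 for all genes tested, and they lay between -0.55 and 0.46. The most abundant of them were Anxa2, an annexin of the plasma membrane, at 10710 ± 950.2 normalised counts in WT and 11050 ± 996.7 in CD1d-KO samples (SD, n = 4 each), Cd44, a hyaluronan receptor, at 3219 ± 353.2 and 3482 ± 640.4, and Emp1, an epithelial membrane protein, at 1826 ± 379.9 and 2231 ± 330.9. Their log2 fold changes were 0.04 ± 0.086, 0.11 ± 0.127 and 0.29 ± 0.145 (SE).

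YAP target genes gave a like result. Of 24 genes listed, 20 were tested, 0 passed in DESeq2 (3 at an unadjusted p under 0.05) and 0 of 18 passed in edgeR, with a median log2 fold change of 0.02. Ccn1, Ccn2 and F3 are in both this and the preceding list. Dock5, Nuak2 and Crim1, the most abundant, had log2 fold changes of -0.17 ± 0.068, -0.09 ± 0.102 and 0.34 ± 0.119 (SE).

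Stem cell genes of the adult crypt, which recede when the fetal set is switched on, were also compared. All 15 were tested and 0 passed in DESeq2 (2 at an unadjusted p under 0.05) or in edgeR, and the median log2 fold change was 0.08. Olfm4, the most abundant marker of crypt base cells, was at 151400 ± 23210 normalised counts in WT and 174200 ± 31620 in CD1d-KO samples (SD, n = 4 each). Slc12a2, an ion cotransporter of crypt cells, and Prom1, a membrane glycoprotein of the crypt, had log2 fold changes of 0.29 ± 0.129 and -0.04 ± 0.089 (SE).

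**Figure D2:**
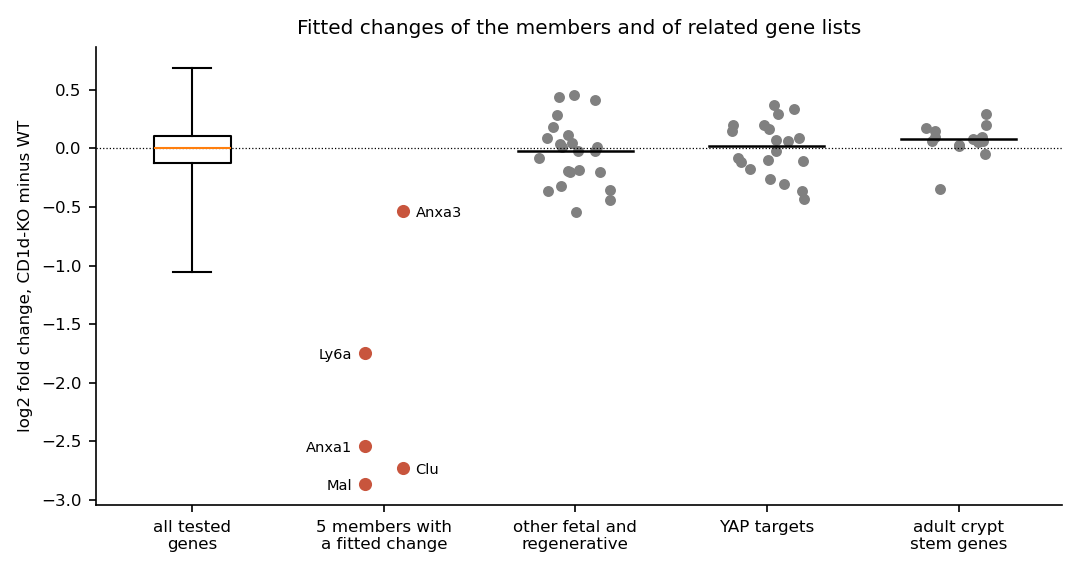
DESeq2 log2 fold changes (CD1d-KO minus WT, vertical axis) of all tested genes as a box of the quartiles with whiskers over the central 95% of genes, of the 5 members with enough reads in both genotypes (red), and of the tested genes of 3 related lists (grey points, black line at the median). The lists centre near 0, and Ly6a, Clu, Anxa1 and Mal lie below the lower whisker at -1.05.

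Interferon-gamma response genes were included because Ly6a is one of the genes that interferon induces. Of 25 genes, all tested, 9 passed in DESeq2 as lower in CD1d-KO and 0 as higher, beside 2.38% of all genes tested that passed as lower, and edgeR called 3 of the 24 it tested. The median log2 fold change was -0.80. The genes with the most extreme Wald statistic, each with a smaller fold change than the median, were H2-D1, a classical MHC class I heavy chain, at 3693 ± 188.1 normalised counts in WT and 2611 ± 380.5 in CD1d-KO samples (SD, n = 4 each), Irf1, a transcription factor of the interferon response, at 7018 ± 390.1 and 5566 ± 425.5, and Tap1, which carries peptides to MHC class I, at 2554 ± 207.7 and 1595 ± 413.8. All 3 fell, with log2 fold changes of -0.50 ± 0.099, -0.34 ± 0.073 and -0.68 ± 0.151 (SE) and adjusted p of 5.83e-05, 0.000465 and 0.000639 (DESeq2). Irf1 did not pass in the samples without Y-linked counts (adjusted p = 0.0647). Their summed level over the 25 genes was 79490 to 91540 in WT samples and 40660, 47210, 71290 and 63590 in CD1d-KO 1 to 4. It was lowest in the pair with Y-linked counts, as were Ly6a, Clu, Anxa1 and Mal.

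The closest relatives of the members changed in both directions. Abcb1a, the paralog of Abcb1b and the main P-glycoprotein gene of the gut, rose in CD1d-KO samples. It was at 3585, 4531, 3511 and 3655 normalised counts in WT 1 to 4 and at 6421, 6733, 5972 and 4681 in CD1d-KO 1 to 4, without overlap, a log2 fold change of 0.64 ± 0.118 (SE, adjusted p = 1.17e-05, DESeq2). Abcb1b, which was lower in CD1d-KO, thus moved against its paralog, whose call held under all 15 alternatives. WT 2, the WT sample with 2 counts of Abcb1b, had the highest Abcb1a of the 4 WT samples. Because the 2 genes are near-identical in part, reads from shared stretches may have been assigned to either, which was not tested. In raw counts, CD1d-KO 1 to 4 held 7182, 7069, 6110 and 4876 of Abcb1a and 0, 2, 1 and 1 of Abcb1b.

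Of 24 other Ly6-type genes, 10 were tested, 1 passed as lower and 1 as higher. Psca, a Ly6-type surface protein of gastric and urothelial cells, fell, from 4.91, 17.8, 116.3 and 73.3 normalised counts in WT 1 to 4 to 0, 0, 0 and 1.92 in CD1d-KO 1 to 4. Relative to total counts it was 112 times as frequent in WT (95% exact counting interval 30.6 to 932), a ratio resting on 2 CD1d-KO counts, with an adjusted p of 0.00157 (DESeq2) that became 0.115 without WT 3 and WT 4. Cd59a, a complement inhibitor, rose from 34.9 ± 6.19 in WT to 71.7 ± 22.8 in CD1d-KO samples (SD, n = 4 each; log2 fold change 1.04 ± 0.288, SE, adjusted p = 0.0136). That call was lost without CD1d-KO 3 (adjusted p = 0.0719), CD1d-KO 4 (0.0958), WT 1 (0.0502), WT 3 (0.0798) or both WT 3 and WT 4 (0.268), with the replicate block (0.105) and by edgeR (0.0773). Lypd8, Ly6e and Ly6g5b, the most abundant of the others, had log2 fold changes of -0.23 ± 0.147, -0.24 ± 0.135 and -0.29 ± 0.302 (SE) and did not pass.

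Among 10 other annexins, 9 tested, 1 passed. Anxa10, an annexin of stomach epithelium, fell from 42.2, 41.9, 387.8 and 216.4 normalised counts in WT 1 to 4 to 0.894, 0, 1.96 and 16.3 in CD1d-KO 1 to 4 (log2 fold change -5.17 ± 1.34, SE, adjusted p = 0.00617, DESeq2). Its highest sample was WT 3, as for Anxa1 and Anxa3. The call was lost without WT 3 (adjusted p = 0.0828), without WT 3 and WT 4 (0.48) and in the samples without Y-linked counts (0.0551). The abundant annexins of the crypt, Anxa4, Anxa2 and Anxa13, had log2 fold changes of 0.13 ± 0.068, 0.04 ± 0.086 and 0.23 ± 0.086 (SE) and did not pass. Mal2, Plp2 and Marveld1, of the wider family of Mal, also did not pass, at 0.09 ± 0.096, -0.02 ± 0.066 and 0.21 ± 0.163.

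**Figure D3:**
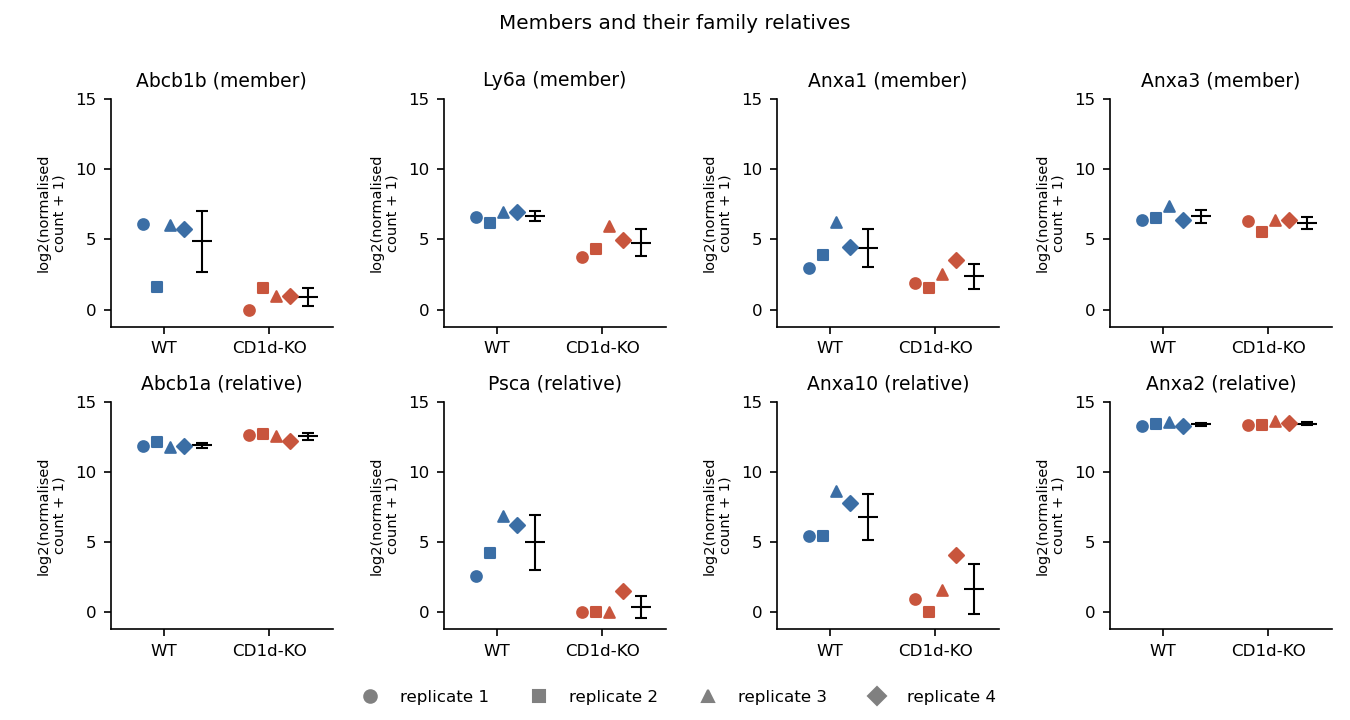
Normalised counts of 4 members (upper row) and of relatives (lower row) in every sample, on a log2(normalised count + 1) axis, with a symbol for each replicate number and the mean ± SD of the log2 values in black. Abcb1a is higher in CD1d-KO while Abcb1b is lower, Psca and Anxa10 are lower, and Anxa2 is level at far higher counts.

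Markers of other cell types moved with the members in part. The 18 gastric markers, all detected in at least 1 sample, summed to 3075, 3054, 18250 and 8164 normalised counts in WT 1 to 4 and to 1617, 1437, 1086 and 2093 in CD1d-KO 1 to 4, and Sox2 was at 0 in all 4 CD1d-KO samples and in WT 2. WT 3 was highest and WT 4 second highest in this sum, as in Clu, Spp1, Anxa1 and Mal, and CD1d-KO 4, the highest CD1d-KO sample, was also highest in those 4 members. Of 15 gastric markers tested in DESeq2, 6 passed as lower and 1 as higher in CD1d-KO. Of all genes tested, 2.38% passed as lower and 4.03% in either direction. By edgeR, 9 of the 14 gastric markers that it tested were called. The part of gastric-type cells in the members' levels was not tested. Leaving out WT 3 and WT 4 was a choice made after the data were seen. Clu then had a log2 fold change of -1.60, Mal of -1.88, Anxa1 of -1.03 and Ly6a of -1.46. In that fit, with WT 1 and WT 2 as the only WT samples, 331 genes passed, among them 3 members, Clu, Mal and Abcb1b. Ly6a did not pass (adjusted p = 0.108, DESeq2) and Spp1 had no adjusted p.

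Some leukocyte markers also passed as lower in CD1d-KO in DESeq2, beside 2.38% of all genes tested. They were 2 of 9 tested for T and NK cells and 2 of 6 for B and plasma cells. For myeloid cells it was 1 of 4, Itgam. By edgeR, 0 of the 4, 4 and 3 that it tested were called. The 6 B and plasma cell markers summed to 94.0 to 594.9 normalised counts in WT and 38.1 to 62.9 in CD1d-KO samples, and the 10 T and NK cell markers to 147.9 to 672.5 and 86.7 to 191.1, with the highest value of each in WT 1. The 10 myeloid markers summed to 967 to 1447 in WT and 788.8 to 1006 in CD1d-KO samples. Most of this sum was Itgam, at 1003 ± 135.3 in WT and 758.2 ± 70.25 in CD1d-KO samples (SD, n = 4 each). Of the 4 tested, Lyz2 went the other way, at a log2 fold change of 0.52 ± 0.434 (SE). The genotypes overlapped in the T and NK sum and in the myeloid sum, but not in the B and plasma sum. Ly6a and Spp1 are expressed by leukocytes as well as epithelium. In both genes WT 1, the sample highest in leukocyte markers, was below WT 3 and WT 4 and above WT 2. The part of leukocyte RNA in the levels of Ly6a and Spp1 was not tested.

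Marker sums of cell types that carry other members overlapped between the genotypes. Mesothelium is the tissue best known for Msln. Of its 5 markers in the table, Bnc1 was at 0 in every sample and the sums were 83.5 to 119.2 in WT and 70.6 to 117.1 in CD1d-KO samples. Most of each sum was Upk1b, at 85.0 ± 13.6 in WT and 85.2 ± 19.4 in CD1d-KO samples (SD, n = 4 each). Of 12 squamous markers, which go with Ly6d and Anxa1 in the forestomach, Krt5, Krt6a and Ivl were at 0 in every sample. Their sums were 69.7 to 110.9 in WT and 73.9 to 110.9 in CD1d-KO samples. Most of each squamous sum was Sbsn, at 69.4 ± 14.65 in WT and 66.7 ± 14.1 in CD1d-KO samples (SD, n = 4 each). The 8 endothelial markers, all detected, summed to 57.6 to 104.1 in WT and 67.6 to 87.4 in CD1d-KO samples, and the 6 stromal markers to 1.22 to 16.7 and 0 to 5.87. Immediate early and heat shock genes, 10 markers of dissociation stress, summed to 37990 to 81960 in WT and 36640 to 78030 in CD1d-KO samples, and the genotypes overlapped.

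**Figure D4:**
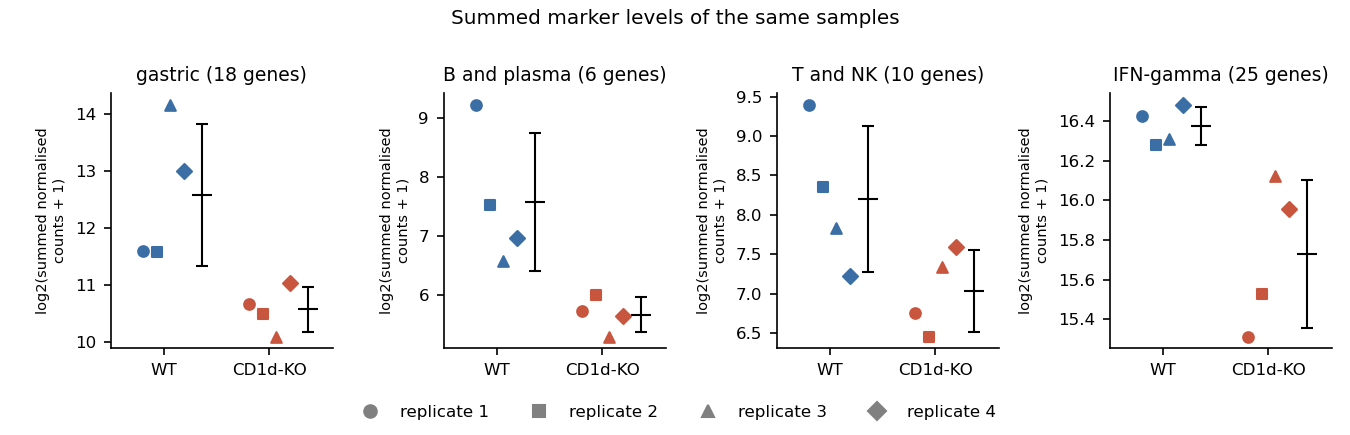
Summed normalised counts of 4 gene lists in every sample, on a log2(sum + 1) axis that does not start at 0 and differs between panels, with a symbol for each replicate number and the mean ± SD of the log2 values in black. WT 3 is highest in gastric markers and WT 1 in both lymphocyte lists, and CD1d-KO 1 and 2 are lowest in the interferon-gamma list.

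The genes whose pattern was most like that of each member were taken as the 3 with the highest Pearson r of log2(normalised count + 1) over the 8 samples, among 11721 genes with a mean of at least 50. All points share the genotype shift and the library, so r is a description. For Ly6a they were Tap1 (r = 0.98), Tgm2 (0.98) and Slfn5 (0.98). For Clu they were Pdlim7 (0.97), Vsig1 (0.97) and Acap3 (0.96), and for Spp1 Sptssb (0.97), Vsig1 (0.97) and Tfeb (0.97). Vsig1, an adhesion protein of stomach epithelium, was on the gastric list and passed as lower in CD1d-KO.

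For Mal the nearest genes were Tmem229b (0.98), Anxa10 (0.98) and Yae1d1 (0.97), for Anxa1 Ubac1 (0.97), Fbxl18 (0.97) and Tmem229b (0.97), and for Anxa3 Rep15 (0.97), Atp2a3 (0.95) and Hk1 (0.95). Abcb1b was nearest to Cdk17 (0.95), Efnb3 (0.94) and Phf11d (0.94). Msln (Chrac1, 0.96, Trp53bp1, 0.94, and Cables2, 0.94) and Ly6d (Smtn, 0.98, Efnb3, 0.95, and Uvrag, 0.94) had too few reads for their patterns to carry weight. No gene stood nearest to more than 2 of the members.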

How the data were processed

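RNA-seq libraries were poly(A)-selected from 150000 sorted cells per sample, and the study's methods name HISAT2 alignment to GRCm39. The authors deposited raw counts per gene, which per the file headers were read pairs counted by featureCounts 1.6.4 in exons of an mm10 annotation, without strand and with primary alignments only, so reads of near-identical genes could be assigned to either copy. Groups came from the sample titles. The study's methods give 4 WT and 4 CD1d-KO mice as the source of the 8 samples.

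CD1d-KO was compared with WT in DESeq2 1.42.0 (R 4.3.3) with genotype as the only term, Benjamini-Hochberg adjustment over 15446 genes and independent filtering at a mean of 2.41. An adjusted p under 0.05 was called. Alternatives were edgeR 4.0.16 quasi-likelihood, TMM factors, a filter of 10 counts in 4 samples, size factors without the 50 most abundant genes, a replicate block, leaving out each sample, the samples without Y-linked counts and, chosen after the data were seen, leaving out WT 3 and WT 4. No 2 samples agreed within counting error (chi-square per degree of freedom at least 9.74). Genes with 1 to 4 CD1d-KO counts are given as pooled ratios with an exact binomial interval, which leaves out the spread between samples.

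The members and lists were chosen with earlier results of these data known, and the lists were written from general knowledge. Named genes were the members, the called genes and the 3 most abundant uncalled genes of each list, the 3 most extreme interferon-gamma genes and the nearest 3 genes to each member. Cd1d1, Xist and Ddx3y were checks. Any other gene named, such as Epcam or S100a11, was chosen after its values were seen.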

Additional observations from a re-analysis of the deposited data

Results flagged for a closer look

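Within each genotype, the gap between the highest or lowest sample and its nearest neighbour was divided by the range of the 4 samples. Of 38 sets of member levels or marker sums, 5 exceeded Dixon's 95% critical value for 4 samples. The 38 include Msln in CD1d-KO, at 0 in every sample. Chance gives about 1 in 20 for normally spread values, which does not hold for sets of few counts. For Spp1 and Ly6d in CD1d-KO samples, CD1d-KO 4 alone held any reads, 0.96 and 1.92 normalised counts, which fixes the ratio at 1.0. Anxa3 had a low CD1d-KO 2 (44.8 normalised counts, ratio 0.885) and a high WT 3 (161.9, ratio 0.884). The summed mesothelial markers were high in WT 3 (119.2, ratio 0.843).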

How the results depend on the processing

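The log2 fold changes of Ly6a, Clu, Anxa1, Anxa3 and Mal stayed negative in all 75 values over 15 alternatives, and 3 moved by more than the spread between replicates, those of Clu, Anxa1 and Mal without WT 3 and WT 4. The 622 genes called became 228 with edgeR, 372 in the samples without Y-linked counts, 331 without WT 3 and WT 4, and 323 to 646 when each sample was left out in turn, lowest without CD1d-KO 2. The 6 members called became 2 with edgeR, 3 without WT 3 and WT 4, and 4 to 6 when each sample was left out. The other fetal and regenerative genes called rose from 0 to 1 with the replicate block (Emp1, higher in CD1d-KO) and ranged from 0 to 1 over the samples left out (S100a11, lower, without WT 4). The YAP target genes called ranged from 0 to 2 (Crim1, higher, and Amotl1, lower, without CD1d-KO 3) and the adult crypt stem genes from 0 to 1 (Slc12a2, higher, without CD1d-KO 3), and the cause was not tested. The replicate block, which takes equal numbers as paired, gave 569 genes and 6 members called. Deviations of equally numbered samples correlated at 0.285, 0.025, 0.221 and 0.004 over 11721 genes, so the numbers were not taken as pairs, and CD1d-KO 2 and 4 correlated best with another number. The ratios for Spp1 and Ly6d could not be taken without CD1d-KO 4. Levels under about 10 counts, as in Msln and Ly6d, are limited by depth.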
